A study of Homo sapiens with 2 samples.

Results

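The mRNAs of the cytosolic ribosomal proteins were followed in a map of Flag-RBM47 contacts, and their members were chosen by gene symbol alone. A cluster, a stretch of genome covered by overlapping reads, was taken when its listed symbol was RPL or RPS with a number and at most a short suffix, or was RPLP0, RPLP1, RPLP2 or RPSA. This rule picked 195 of 233546 clusters and 48 of the 7712 genes in the table. The rule itself used no measured value, but it was set with earlier results of these data known. The cells were MDA231-BrM2a, a non-clonal, brain metastatic line derived from MDA-MB-231 breast cancer cells. They carried Flag-tagged wild-type RBM47 behind a promoter that doxycycline switches on, and were kept in doxycycline at 1 ng/ml for 3 days until UV irradiation. HITS-CLIP uses UV light to bond a protein to RNA in direct contact, recovers it with an antibody to Flag, and sequences the RNA fragments that come along, each unique one being counted as a tag. The series held 1 group with 2 replicates, so no conditions were compared. No library from cells without Flag-RBM47 or without UV was analysed here, and RNA levels were not measured here, so tags cannot be scaled to the amount of each mRNA.

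Each ribosome is built from a large and a small subunit, in which ribosomal RNA is joined by a set of ribosomal proteins made in near equal amounts. Their mRNAs are among the most abundant of a dividing cell. They begin with a tract of pyrimidines that lets nutrient and growth signals switch their translation on and off together. Many of their introns hold small nucleolar RNAs (snoRNAs), which guide chemical changes of other RNAs, and their mRNAs have left many near-identical processed pseudogenes in the human genome.

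Of the 77 canonical ribosomal protein genes, 45 had at least 1 listed cluster. These were 27 of 43 large subunit genes, 2 of 3 genes of the P stalk, the arm of the large subunit that recruits translation factors, and 16 of 31 small subunit genes. Of 7 paralogues that match the rule, RPL7L1, RPL22L1 and RPS27L were listed. RPL3L, RPL10L, RPL26L1 and RPL39L were not. The large subunit genes with no cluster under their own symbol included RPL7, RPL9, RPL10, RPL13A, RPL14, RPL17, RPL18, RPL21, RPL24, RPL29, RPL35, RPL36, RPL36A, RPL39 and RPL41. RPLP1 of the P stalk had none. In the small subunit these included RPS2, RPS3, RPS3A, RPS9, RPS10, RPS14, RPS15, RPS15A, RPS16, RPS26, RPS27, RPS28 and RPSA. The table lists clusters with a minimum of 1 tag per replicate and 5 tags in total, so no level can be given for a gene without one.

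The class had been described as one with short 3'UTRs, and this was checked against a gene annotation (GENCODE on GRCh37, 1 principal transcript per gene). The median annotated 3'UTR was 112 nt over the 77 canonical genes, against 1876 nt over 6793 table genes with an annotated mRNA. The range was wide, and 25 of the 77 exceeded 500 nt. The median was 94 nt in the 45 genes with a cluster and 155 nt in the 32 without. Over 500 nt the order differed, with 17 genes of the first set and 8 of the second. The median number of annotated pseudogenes was 13 in the first set and 16.5 in the second. Reads that fit a pseudogene as well as its parent could have been lost or placed elsewhere, so each gene's count is uncertain. How the authors treated such reads is not given in the sources used here.

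The 48 genes held 3629 tags, or 0.0817% of the tags in the table and 0.103% of those in gene-assigned clusters, while they made up 0.622% of the listed genes. Replicate 1 had 798 of these tags and replicate 2 had 2847. Scaled to the replicate's own total in the table, this came to 0.799 and 0.816 per 1000 tags, a mean of 0.807 ± 0.0121 (SD, n = 2). The tags were concentrated in few genes. RPL15, RPL31 and RPL7L1 held 46.2% of them, and the first 8 genes held 68.9%. At the other end, 33 genes had 50 tags or fewer and 8 had under 10.

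**Figure D1:**
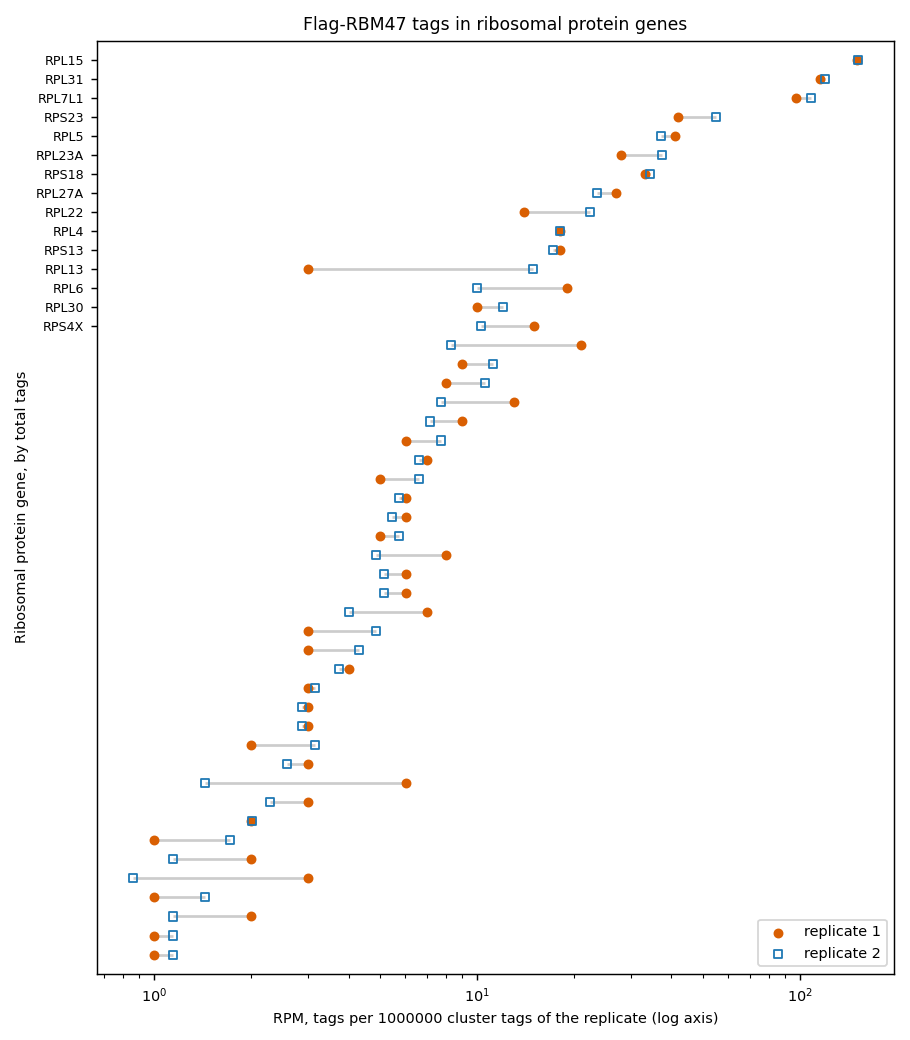
Tags of each of the 48 ribosomal protein genes per 1000000 cluster tags of the replicate (RPM, log axis), with genes ordered by total tags and the first 15 named. Filled circles are replicate 1, open squares replicate 2, and a grey line joins them; RPL15 lies at 150.1 and 151.6, and the lowest genes near 1, the value of a single tag in replicate 1.

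Among large subunit genes, RPL15, which sits deep in the subunit core, had the most tags of any member. It had 150.1 tags per 1000000 tags of the table (RPM) in replicate 1 and 151.6 in replicate 2, from 676 tags in 6 clusters. This put RPL15 at rank 1224 of all listed genes by tags. Of its tags, 97.0% lay in clusters labelled 3'UTR alone. On chromosome 3, plus strand, a single cluster at 23936661 to 23937329 (hg18) held 545 tags, with 121 in replicate 1 and 426 in replicate 2. It was 668 nt long and held 80.6% of the gene's tags. The annotated 3'UTR of RPL15 is 1488 nt.

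RPL31, a protein at the rim of the tunnel through which the new chain leaves, had 115.1 and 119.5 RPM in replicates 1 and 2. Its 529 tags were spread over 25 clusters, more than in any other member. Introns alone held 47.1% of them, in 17 clusters, and 3'UTRs alone held 45.6%, in 6 clusters. Those labelled 3'UTR alone spanned 13634 nt, beside an annotated 3'UTR of 886 nt. The first cluster at the 5' end had this label, and the intron clusters lay between clusters that had it. Which transcripts the labels refer to was not tested. The pair of clusters with the most tags lay next to each other at the 3' end, on chromosome 2, plus strand. The one at 101002476 to 101002628 (hg18) had 16 tags in replicate 1 and 93 in replicate 2, and the one at 101002358 to 101002473 had 15 and 49. The largest RPL31 intron cluster, with 9 and 44 tags, started at 101000883. Its 53 tags were the highest count of any intron cluster among the members.

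RPL5, which carries the smallest ribosomal RNA into the large subunit and can bind the p53 inhibitor MDM2, had 41.04 and 37.3 RPM. Of its 170 tags, 73.5% lay in 2 clusters with more than 1 label. The last cluster, labelled as CDS and 3'UTR (chromosome 1, plus strand, 93079987 to 93080064), had 20 tags in replicate 1 and 65 in replicate 2. The first cluster, labelled as CDS and 5'UTR, at 93071702 to 93071783, had 8 and 32. RPL11, the partner of RPL5 in this complex, had 13 tags.

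RPL23A, which binds nascent chains at the tunnel exit, had 28.03 and 37.5 RPM, and the highest density of the members at 713 tags per kb of cluster. A cluster of 89 nt (chromosome 17, plus strand, 24071695 to 24071784) held 147 of its 159 tags, with 22 in replicate 1 and 125 in replicate 2. Its label was an exon that the authors had not classified. RPL13 resembled it in form. Its 55 tags lay in 1 cluster of 85 nt (chromosome 16, plus strand, 88155337 to 88155422), again an unclassified exon, with 3 tags in replicate 1 and 52 in replicate 2. By annotation RPL23A contains 4 snoRNAs of 64 to 72 nt (SNORD42A, SNORD42B, SNORD4A and SNORD4B) and RPL13 contains SNORD68 of 84 nt. Whether these clusters lie on the snoRNAs was not tested, since no annotation of the same build was used.

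RPL27A and RPL22 had long runs of small 3'UTR clusters. RPL27A had 27.03 and 23.5 RPM in 14 clusters, of which 12 were in the 3'UTR, and its largest cluster held 13 tags. RPL22, which can be lost from the ribosome without stopping translation and is deleted or mutated in several cancers, had 14.01 and 22.4 RPM. All 91 of its tags lay in 6 clusters labelled 3'UTR alone, none of which exceeded 22 tags. RPL4, whose long loop lines the exit tunnel, had 18.02 and 18.05 RPM. Of its 81 tags, 82.7% lay in 4 coding clusters.

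Next in order were RPL6 with 54 tags, RPL30 with 52, RPL27 with 49, RPL23 with 33, RPL35A with 30, RPL37 with 28 and RPL38 with 25. RPL6 had 49 of its tags in 1 coding cluster, with 17 in replicate 1 and 32 in replicate 2. RPL27 had 39 tags in a coding cluster, with 15 and 24. In RPL23 all 3 clusters carried more than 1 label. RPL35A and RPL11 are among the genes mutated in Diamond-Blackfan anaemia, an inherited failure of red cell production. The lowest large subunit genes were RPL10A, RPL12 and RPL26 with 6 tags each.

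The P stalk had few tags. RPLP0, its base, had 24 tags in 4 clusters, with 6 in replicate 1 and 18 in replicate 2, and 3 of the clusters were coding. RPLP2 had 5 tags in 1 cluster labelled as CDS and 3'UTR, with 1 and 4.

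In the small subunit, RPS23, a protein of the decoding centre, led with 42.04 and 55.02 RPM in replicates 1 and 2. Its 234 tags lay in 16 clusters on the minus strand of chromosome 5, and 15 of these were labelled 3'UTR alone. They spanned 2367 nt, in a gene with an annotated 3'UTR of 2789 nt. The first of the 16, labelled as CDS and 3'UTR, had the most tags, 7 in replicate 1 and 35 in replicate 2, so no single site dominated.

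RPS18, which lies at the head of the subunit and touches the large one, had 33.03 and 34.4 RPM. Its profile was intronic. Of 152 tags, 89.5% lay in 11 intron clusters, and the only other cluster was a coding one with 16 tags. The largest intron cluster had 8 tags in replicate 1 and 24 in replicate 2. RPS13 had a near opposite profile, with all of its 78 tags in 3 coding clusters, at 18.02 and 17.2 RPM. Its main cluster (chromosome 11, minus strand, 17053219 to 17053317) had 13 and 53 tags.

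RPS4X, which is encoded on the X chromosome, had 51 tags. Of these, 39 lay in a cluster labelled as CDS and 3'UTR, with 11 in replicate 1 and 28 in replicate 2. RPS24 had 47 tags, RPS29 had 45, and RPS6, the substrate of the S6 kinases, had 40. In RPS29, 4 of 6 clusters were in introns. RPS7 had 25 tags and RPS12 had 20. At the foot of the list, RPS27A, made as a fusion with ubiquitin, had 6 tags. RPS19, the gene most often mutated in Diamond-Blackfan anaemia, had 5, with 1 in replicate 1 and 4 in replicate 2. The large subunit held 2291 tags and the small subunit 786, a ratio of 2.92. Per listed gene the medians were close, at 28 tags in 27 large subunit genes and 29.5 in 16 small subunit genes. RPL15 and RPL31 alone held more tags than the whole small subunit.

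Among the paralogues, RPL7L1, a nucleolar relative of RPL7, had 97.1 and 108.3 RPM, from 472 tags in 18 clusters on the plus strand of chromosome 6. Unclassified exons held 70.1% of these, in 11 clusters with up to 71 tags, and 3'UTRs alone held 27.3%. The largest, at 42965228 to 42965418, had 11 tags in replicate 1 and 62 in replicate 2. Whether the unclassified exons are part of the 3436 nt annotated 3'UTR of RPL7L1 was not tested. RPL22L1 had 26 tags in 4 clusters, of which 3 were in the 3'UTR, and RPS27L, a p53 target, had 25 tags in 1 3'UTR cluster. RPL22L1 thus stood below RPL22 with its 91 tags, while RPL7L1 had no listed counterpart in RPL7 and RPS27L none in RPS27.

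**Figure D2:**
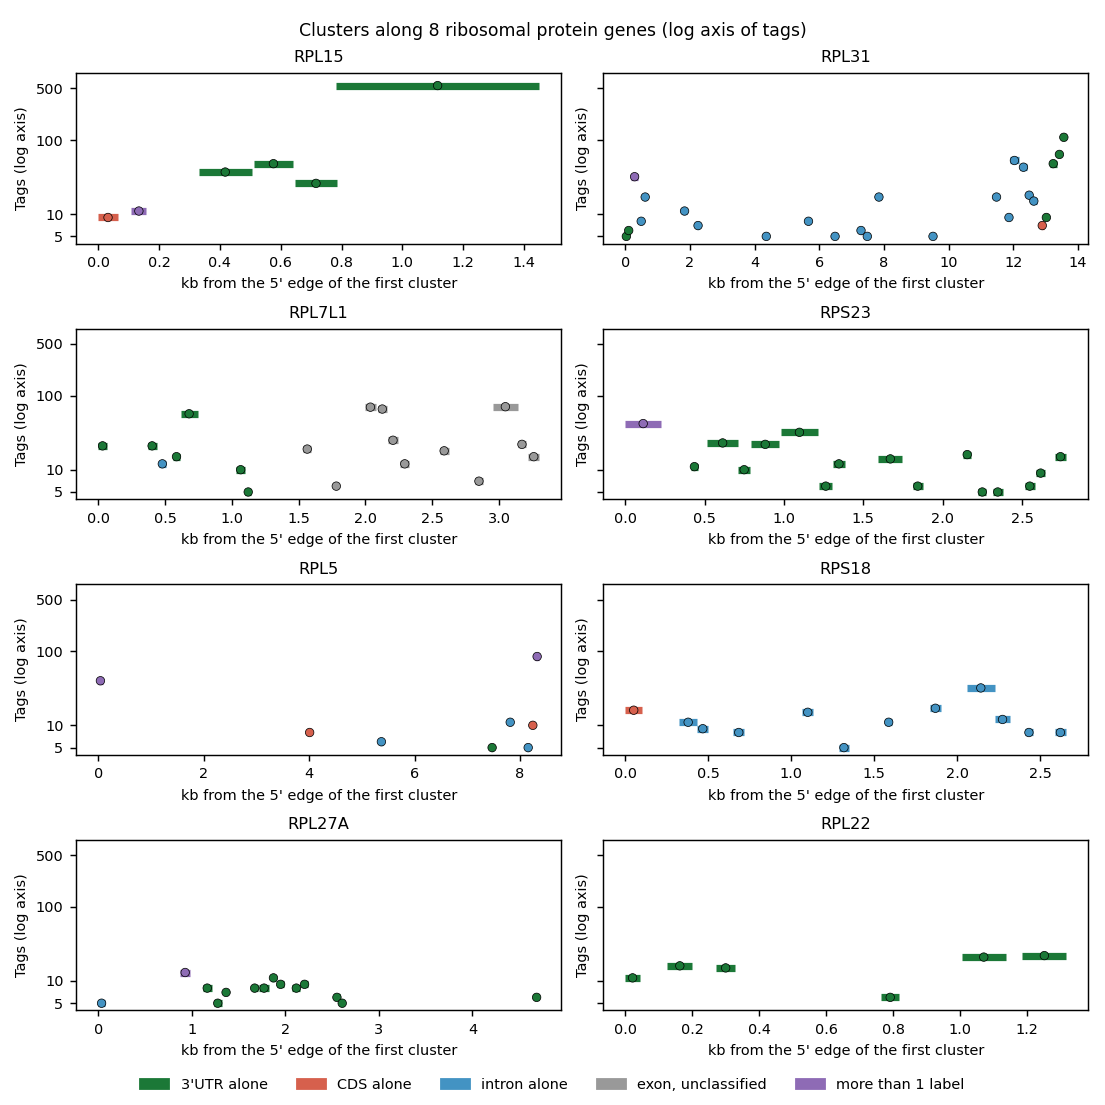
Clusters along 8 ribosomal protein genes, with distance in kb from the 5' edge of the first cluster (linear) against tags per cluster (log axis). Bars mark cluster length, circles their centres and colours the location label; RPL15 has 1 wide 3'UTR cluster of 545 tags, RPL31 and RPS18 have rows of intron clusters, and RPS23, RPL27A and RPL22 have rows of 3'UTR clusters.

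The tags were then grouped by where in the transcript their clusters lay, as the authors labelled them. Clusters labelled 3'UTR alone held 42.0% of the members' tags in replicate 1 and 42.1% in replicate 2, a mean of 42.1% ± 0.12 (SD, n = 2), beside 40.7% ± 1.55 over all genes. Coding clusters held 16.8% ± 2.79, beside 10.5% ± 0.138, and introns 13.5% ± 0.947, beside 28.5% ± 2.37. Clusters with more than 1 label held 13.5% ± 0.433, beside 14.4% ± 0.514. Unclassified exons held 14.1% ± 4.05, beside 5.50% ± 0.186. Both replicates of the members lay above both replicates of all genes for coding clusters and below them for introns, and these sides held under each alternative tried. Unclassified exons were higher in the members too, but without the paralogues the share was 6.55%, and the replicates overlapped with those of all genes. For the 3'UTR the members lay above all genes by a narrow gap, and the side turned with the setting. The share was 29.4% without RPL15, beside the same 40.7% over all genes, from which no gene was left out. It was 43.7% in clusters of at least 10 tags, beside 47.1% over all genes. For more than 1 label the members lay below all genes, and this side turned as well, with 16.2% without RPL15 and 15.7% without the paralogues. The coding and intron sides were not particular to the members among the 3 lists of related genes described below. Coding clusters held 34.9% of tags in the translation factors, 22.2% in the assembly factors and 9.73% in the respiratory chain. Introns held 17.3%, 10.4% and 30.6% in the same order, so only the respiratory chain lay on the other side of all genes. No test of a list was made on these shares.

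The 3'UTR tags came from few genes. Clusters labelled 3'UTR alone occurred in 19 genes, and RPL15 with 656 tags, RPL31 with 241, RPS23 with 192, RPL7L1 with 129, RPL22 with 91 and RPL27A with 90 held 91.5% of them. Without RPL15 the 3'UTR share of the members was 29.4% ± 0.333 (SD, n = 2), and without RPL15, RPL31 and RPL7L1 it was 25.1% ± 1.75. Each of these 6 genes has an annotated 3'UTR of over 500 nt, from 886 nt in RPL31 to 4066 nt in RPL27A. The labelled clusters need not lie in that annotated 3'UTR, since those of RPL31 spanned 13634 nt. Over the 48 genes, tags and annotated 3'UTR length had a Spearman's rho of 0.347, given as a description, since the genes share libraries and a longer transcript offers more sequence. A long 3'UTR did not always go with many tags. RPS19, with 1548 nt, had 5 tags and none in a 3'UTR cluster, and RPL37, with 7242 nt, had 28.

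Intron clusters occurred in 9 genes, and RPL31 and RPS18 held 81.2% of the intron tags, in 28 of 41 clusters. RPS29 had 26 tags in introns, RPL5 had 22 and RPL4 had 14. Without RPL15, RPL31 and RPL7L1 the intron share was 11.2% ± 0.657.

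Coding clusters were small but widespread. They occurred in 31 genes, the largest was the RPS13 cluster with 66 tags, and 26 of the 46 had under 10 tags. Clusters labelled as CDS and 3'UTR occurred in 19 genes, with 402 tags in 20 clusters. Those labelled as CDS and 5'UTR were found in RPL5, RPL23, RPS24 and RPS12 only. They had 69 tags in 5 clusters, of which the RPL5 one had 40. A double label need not mark a single junction. RPL23 had 2 clusters labelled as CDS and 5'UTR with 5' edges 413 nt apart. RPL28 had 2 labelled as CDS and 3'UTR with 5' edges 3415 nt apart. Whether clusters with these labels lie over the start or end of the coding sequence was not tested. The pyrimidine tract of these mRNAs lies in the 5'UTR, and no member cluster was labelled 5'UTR alone. That label was rare over all genes too, with 0.624% of clusters and 0.441% ± 0.0213 of tags. Binding at the tract was not tested. In the 40 genes after the first 8, coding sequence alone held 45.6% of 1129 tags, 3'UTRs alone 18.7% and introns 4.43%. Labels that include coding sequence held 67.6% there, beside 28.7% over all members and 21.2% over all genes. The 40 genes were chosen by their few tags, while the value over all genes keeps those with the most tags, so these sets are unlike. No set of other genes with few tags was placed beside them. Position within the gene varied. Of 22 genes with at least 3 clusters, the peak cluster was the last at the 3' end in 11 and the first at the 5' end in 5. The same count over all genes was not made, so no preference for either end can be read from it.

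**Figure D3:**
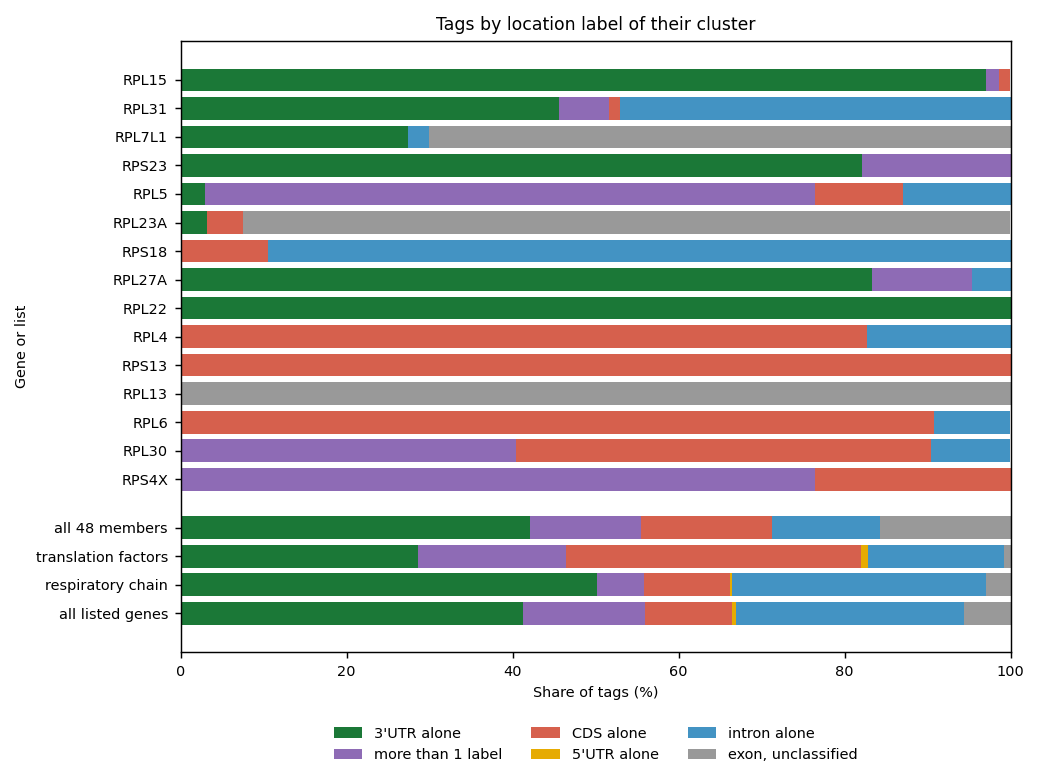
Share of tags (%) by location label for the 15 ribosomal protein genes with the most tags, for all 48 members, for 2 of the comparison lists and for all listed genes; each bar adds up to all tags of the gene or list. RPL15 is almost wholly 3'UTR, RPS18 mostly intron, RPS13 wholly CDS, and RPL23A and RPL13 mostly or wholly unclassified exon.

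To place the members among related genes, their levels were set beside 3 lists, of translation factors, of nuclear-encoded respiratory chain subunits and of ribosome assembly factors. Listed genes numbered 47 of 64, 37 of 77 and 20 of 39 in these lists, against 48 of 84 for the ribosomal proteins. The median was 25.5 tags per ribosomal protein gene, with quartiles of 13 and 54.25. It was 180 in the translation factors, 29 in the respiratory chain, 104 in the assembly factors and 96 over all genes. Only 8 members lay above the median of all genes. EIF4G2 led the translation factors with 4551 tags, NDUFV2 the respiratory chain with 685, and NOLC1 the assembly factors with 567.

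A threshold of the form the study used, more than 100 tags in clusters of at least 10 tags, was applied to the listed clusters. Here 7 members, or 14.6%, passed, beside 39.9% of all listed genes. The share was 53.2% of the translation factors, 13.5% of the respiratory chain genes and 30% of the assembly factors. The 7 members were the first 7 by tags, from RPL15 to RPS18, and 4 of them have an annotated 3'UTR of over 500 nt. RPL27A, with 108 tags over all clusters, did not pass, since most of its clusters were under 10 tags. In replicate 1 alone 1 member passed and in replicate 2 alone 5 did.

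The members also had fewer and shorter clusters, with a median of 2 clusters per gene, beside 9 over all genes, and 33.3% of them had a single cluster, beside 16.3%. The median cluster length was 71 nt, beside 82 nt. Per kb of cluster the order turned. The median was 169.9 tags per kb in the ribosomal proteins, beside 146.5 in the translation factors, 122.7 in the respiratory chain, 126.6 in the assembly factors and 116 over all genes. In 35 of 48 members the value was above the median of all genes. A cluster must hold 5 tags whatever its length, so a short cluster has a higher lowest possible density. The part of this minimum in the result was not tested.

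**Figure D4:**
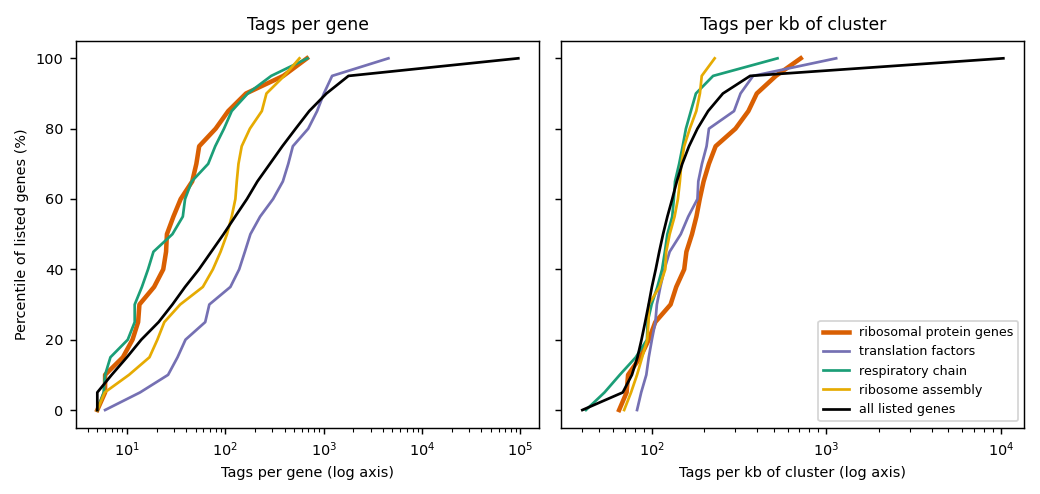
Percentile of listed genes against tags per gene (left, log axis) and tags per kb of cluster (right, log axis), for ribosomal protein genes, translation factors, respiratory chain, ribosome assembly and all listed genes. At the 50th percentile the ribosomal protein line lies at 25.5 tags, left of all genes at 96, and at 169.9 tags per kb, right of all genes at 116.

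The design allowed 1 kind of test, of whether a gene's tags were split between the libraries as all tags were, at 22.3% in replicate 1. The test compares libraries and not conditions. Each listed cluster holds at least 1 replicate 1 tag, so a cluster with few tags cannot have a very low replicate 1 share. The share was 21.06% in clusters of at least 10 tags and 20.8% in those of at least 100. The part of the minimum in this was not tested. In the two-sided exact binomial test with Benjamini-Hochberg adjustment over all genes, 0 of 48 members passed an adjusted p of 0.05, beside 1.7% of all genes. At an unadjusted p under 0.05 there were 4 members, RPL13, RPL27, RPL3 and RPL6, beside 10.1% of all genes. In the same test over all clusters, 0 of 195 member clusters passed, beside 0.0111% of all clusters, with 11 at an unadjusted p under 0.05, or 5.64%, beside 3.04%. A beta-binomial test, which allows for extra spread, called 0 genes and 0 clusters among the members, beside 0.0778% of all genes and 0.00471% of all clusters. At an unadjusted p under 0.05 it gave 4 genes and 7 clusters, beside 3.58% and 1.55%.

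RPL13 had the smallest p. Its replicate 1 share was 5.45% (Wilson 95% interval 1.87 to 14.9; exact binomial p = 0.00165, adjusted p = 0.0752). RPL27 stood on the other side with 42.0% (29.4 to 55.8; exact binomial p = 0.00181, adjusted p = 0.0801). Against the share of 20.8% in clusters of at least 100 tags, RPL27 passed, with an adjusted p of 0.0244 in the exact test, where 3.54% of all genes passed. For 44 of 48 genes the interval included the overall share. The members' joint share was 21.9% (20.6 to 23.3). Across the 48 genes the replicates had a Spearman's rho of 0.901 and a Pearson's r of 0.934 on the log2 scale. Across the 195 clusters rho was 0.533. These are descriptions across genes and clusters, which are not independent replicates.

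**Figure D5:**
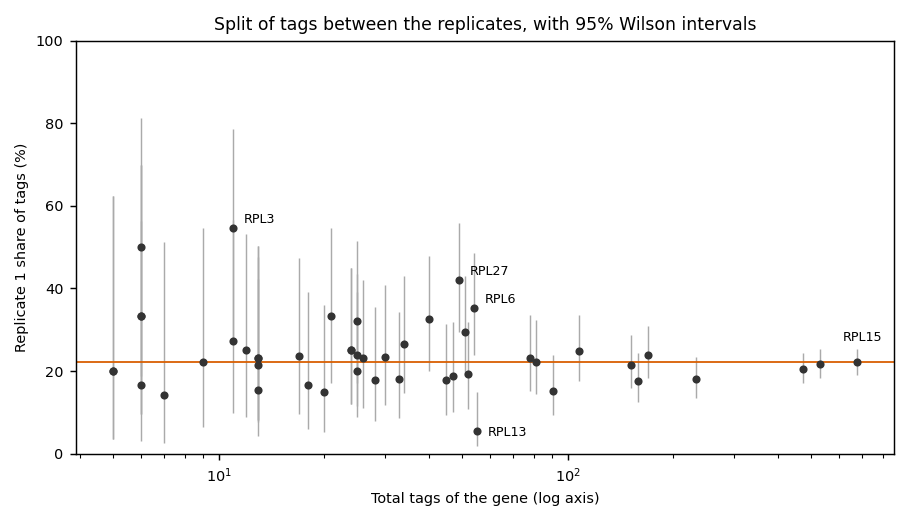
Replicate 1 share of tags (%) against total tags (log axis) for the 48 ribosomal protein genes, with 95% Wilson intervals and a line at the share over all clusters, 22.3%. RPL13 at 5.45% and RPL27 at 42.0% lie farthest off the line among genes with over 20 tags, and the intervals widen to the left as tags become few.

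Depth limited what single members could show. In 62 of the 195 clusters replicate 1 held exactly 1 tag, and 17 genes had 3 replicate 1 tags or fewer. Clusters of at least 10 tags numbered 97, in 35 genes, and clusters of at least 100 tags numbered 3, in RPL15, RPL23A and RPL31. In 14 clusters the sum of both replicates exceeded the total given by the authors, by 2 tags at most.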

How the data were processed

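HITS-CLIP tags were taken from 2 replicates of 1 group. The authors collapsed reads to unique tags by a degenerate barcode and grouped them into clusters with tags in both replicates, and deposited raw counts of tags per cluster for each replicate and in total. Novoalign and the build hg18 are named in the submitters' processing notes. Settings for reads that map to several places are not given in the sources used here. All value columns were mapped, and 0 were left out. The table held 999047 tags in replicate 1 and 3489697 in replicate 2, which are totals of listed clusters and not library depths. Whether the listed positions count from 0 or from 1 is not stated.

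Members and lists were chosen with earlier results of these data known. Gene totals are the authors' total summed over all listed clusters, and clusters with more than 1 label form a class of their own. Values per 1000 or per 1000000 tags (RPM) use each replicate's tags in the table. Named genes were the 25 members with the most tags, listed paralogues, the members with called splits, the 5 lowest with ties, the largest clusters and those of the highest intron share. Others, among them RPL11, RPS7, RPS12, RPLP0, RPL3 and the genes set beside 3'UTR length, were named after their values were seen. A few genes are counted but not reported here by name. Splits were tested with a two-sided exact binomial test, checked on simulated data. Labels do not say that the replicates came from separate cultures. The exact binomial p-values set each split between these libraries against counting error around 1 fixed share, and measure no spread between cultures. The beta-binomial ones add a spread estimated over all genes or all clusters. Wilson intervals (95%) cover counting error only. Annotated 3'UTRs, pseudogenes and snoRNAs were matched by symbol, for all 48 members, and no reference coordinate was used. No cluster sequence is shown, since no genome of the files' build was used here. Python 3.11.15, NumPy 2.4.6, pandas 2.3.3, SciPy 1.17.1 and matplotlib 3.10.9 were used.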

Additional observations from a re-analysis of the deposited data

How the results depend on the processing

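Values stayed within their limits under 41 of 77 alternatives, moved under 35 and gained a call under 1. The limit was the SD between the replicates (n = 2), an interval over genes, or 1.5 times for a count. Additions of read-through symbols, of another total and without the first 3 genes, and the comparison with all genes under each setting, were chosen after seeing the data. No paired analysis was possible because only 1 group was sampled.

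The tags per 1000 were 0.839 with clusters of at least 10 tags, 0.780 with at least 30, 0.693 in canonical genes, 0.656 without RPL15, 0.892 with read-through symbols and FAU added, and 1.02 per 1000 gene-assigned tags. The median was 66 tags per gene at a minimum of 30 per cluster. Tags per kb of cluster were 222.2 and 609.4 in clusters of at least 10 and 30 tags. With each replicate left out, the median ranged from 6 to 20 tags, genes over 100 tags from 1 to 5, and tags per kb from 37.9 to 127.9, the lower value each time from replicate 1 alone, which has fewer tags.

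At a minimum of 10 tags per cluster, the 3'UTR, intron and multi-label shares were 43.7%, 10.8% and 14.6%. In clusters of at least 30 tags they were 49.8%, 7.14% and 12.7%, with 11.03% in CDS. In canonical genes they were 43.04%, 15.4% and 15.7%. Without RPL15 they were 29.4%, 16.6% and 16.2%, with 20.4% in CDS. Without the first 3 genes, 3'UTRs held 25.1%, introns 11.2% and CDS 30.4%. Counting every label gave 53.7% for 3'UTRs and 30.05% for CDS. As shares of clusters, 3'UTRs were 33.3%, CDS 23.6% and introns 21.03%. Against all genes, the 3'UTR share turned from above to below without RPL15 and without the first 3 genes. It also turned at 10 and 30 tags (47.1% and 53.7% over all genes) and counting every label (53.98%). Where members were left out, no gene was left out of the value over all genes. The multi-label share turned from below to above without RPL15, in canonical genes, without the first 3 genes (22.9% against 14.4%) and as a share of clusters (13.3% against 6.13%). CDS and intron shares kept their side. The cause of these moves was not tested. Against the expected share of 20.8%, 1 gene split was called.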

Other observations

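Clusters listed under symbols that the membership rule leaves out bear on the members without clusters. The read-through symbol RPL17-C18orf32 had 226 tags in 4 clusters, 48 in replicate 1 and 178 in replicate 2, and 199 of its tags were in 3'UTR clusters. RPS10-NUDT3 had 106 tags in 12 clusters, and RPL36A-HNRNPH2 had 43 in 5. Whether these tags came from RPL17, RPS10 and RPL36A was not tested. FAU, which encodes a ribosomal protein fused to a ubiquitin-like one, had 6 tags. GNB2L1, the scaffold protein RACK1 of the small subunit, had 31. RPL34-AS1, on the strand opposite to RPL34, had 156 tags, 144 of them in introns, while RPL34 itself had 13.

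Mitochondrial ribosomal proteins, whose genes are nuclear, had 33 listed genes, 308 clusters and 6715 tags. Scaled, this was 1.49 ± 0.0740 per 1000 tags (SD, n = 2). Their median was 34 tags per gene, and 3'UTR clusters held 69.2% ± 3.43 of the tags. MRPS6 alone held 1961 of the 4744 tags in these 3'UTR clusters, so the share leans on a single gene. MRPS6 had 2336 tags in 67 clusters and MRPL19 had 1796 in 93, so these genes together held more tags than all 48 cytosolic members. These values were looked at after those of the cytosolic members were known.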
